A study of Mus musculus with 6 samples.

Results

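The integrated stress response and the unfolded protein response were followed through 36 genes of a mouse leukemia RNA-seq table with 15035 gene rows. The genes were chosen by name, as 21 genes of the ATF4 arm (the factors of the integrated stress response and their targets) and 15 genes of the ER arm (sensors, chaperones and degradation factors of the endoplasmic reticulum, ER). All 36 were in the table. The libraries came from BALB/c bone marrow cells made leukemic with retroviruses that carry mutant forms of CSF3R (a cytokine receptor of the granulocyte lineage) and of CEBPA (a myeloid transcription factor). Both mutant genes were thus present in every sample. The 3 treated samples had received GSK-LSD1 at 4 nM for 48 h, a compound that blocks the histone demethylase LSD1, and the 3 control samples had received DMSO, the solvent, for the same time. Cells were cultured in serum-containing medium. The labels do not say whether the 3 samples of a group were separate cultures or came from separate mice, and the p-values therefore rest on a spread between libraries that may be technical only.

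In the integrated stress response, kinases that sense amino acid shortage, heme shortage, double-stranded RNA or ER stress phosphorylate the initiation factor eIF2, which slows its exchange factor eIF2B and with it most protein synthesis. The mRNA of the transcription factor ATF4 is translated better under these conditions, and ATF4 then induces genes for amino acid synthesis and uptake and for feedback on the pathway. The unfolded protein response has 3 ER membrane sensors, PERK (gene Eif2ak3), IRE1 (gene Ern1) and ATF6, which answer misfolded proteins by raising chaperones, folding enzymes and degradation of ER proteins. IRE1 works by splicing the Xbp1 mRNA. Because ATF4 is controlled largely by translation, ATF6 by cleavage and XBP1 by splicing, gene-level read counts report the mRNA amounts and not the activity of these factors.

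The libraries held 9572638 to 10199533 reads in genes. Over pairs of libraries of one group, the read counts differed by more than counting noise, with a chi-square per degree of freedom of 1.57 to 1.86 in the GSK-LSD1 group and 2.52 to 3.51 in the DMSO group. All 12 listed myeloid marker genes were present, with a summed value of 21798 to 22462 with GSK-LSD1 and 18116 to 19619.9 with DMSO. The largest single share of this sum was Mpo (8951.5 with GSK-LSD1 and 7390.3 with DMSO on average). Of the 12, 8 were called higher, from Spi1 (0.23 on the log2 scale) to Itgam (1.82) and Csf3r (2.03). Another 3 were called lower, Elane (-0.92), Prtn3 (-0.67) and Ctsg (-0.47), and 1, Cebpa, neither. Csf3r and Cebpa are the genes whose mutant forms the retroviruses carry. Most other marker sums moved with the treatment. For 9 of 11 listed markers of maturing neutrophils in the table the sum was 22071 to 22809 with GSK-LSD1 and 4809 to 5286 with DMSO, for 6 of 10 macrophage markers 1556 to 1749 with GSK-LSD1 and 361 to 412 with DMSO, and for 5 of 10 red cell markers 22.4 to 35.7 with GSK-LSD1 and 200.2 to 269 with DMSO. Of the 7 neutrophil markers tested, 6 were called higher and 1, Ngp, lower (-1.25 on the log2 scale). The largest single share of the neutrophil sum was Mmp8 (15578.6 with GSK-LSD1 and 2375.5 with DMSO on average). That of the macrophage sum was Lyz2 (1010.9 with GSK-LSD1 and 244.1 with DMSO on average). All 5 macrophage markers tested were called higher. Markers of mast cells and basophils, 9 of 9 in the table, summed to 41396 to 42899.6 with GSK-LSD1 and 33034 to 35313 with DMSO. Of these, 3 were called higher, 2 lower and 4 neither, and the largest single share of the sum was Cpa3 (23028 with GSK-LSD1 and 14319.6 with DMSO on average), while Hdc (-1.15 on the log2 scale) and Fcer1a (-0.35) fell. Megakaryocyte markers (6 of 6, most of the sum from Itga2b) summed to 1727 to 1794 with GSK-LSD1 and 1925 to 2055 with DMSO. Of the 4 tested, Gp1ba was called higher (0.87 on the log2 scale), Itga2b (-0.21) and Pf4 (-0.43) lower and Ppbp neither. Stromal and endothelial markers (3 of 9, most of the sum from Pecam1) summed to 4674 to 4776 with GSK-LSD1 and 3782 to 4256 with DMSO. T and NK cell markers (3 of 8) summed to 51.6 to 58.1 with GSK-LSD1 and 55.8 to 67.4 with DMSO, which overlap. Plasma cells, whose secretory load makes them a usual site of the unfolded protein response, had 5 of 8 markers in the table with a sum of 92.1 to 108 with GSK-LSD1 and 111 to 121 with DMSO, nearly all of it Prdm1, which was not called. The plasma cell gene Jchain was at 0 in 5 of the 6 libraries, and the 3 of 6 B cell markers present summed to at most 5.10. The part of these shifts in cell state or cell mix in the results below was not tested, and in bulk RNA fewer cells of a type and less RNA per cell cannot be told apart.

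After 48 h of GSK-LSD1 the stress response genes changed by small amounts and mostly downward, and the pattern was not uniform within either arm. Of the 6 enzymes of amino acid synthesis 4 fell, amino acid transporters split into risers and fallers, and the sensor genes Atf6 and Ern1 rose while Xbp1 and several chaperone and degradation genes fell. Among those chaperone and degradation genes, only Herpud1 kept its call in all 15 alternative settings. Each of the 36 genes passed the filter on low values in every library (the lowest single value was 61.1 scaled reads), so none was left out. In limma on log2(value + 1) and p-values adjusted (Benjamini-Hochberg) over the 11588 genes tested, 21 of the 36 were called at an adjusted p under 0.05, which is 58.3% against 41.1% of all genes tested and 42.8% of those whose mean value was 50 or more. Of the 36, 6 rose (16.7%, against 20.6% of all genes) and 15 fell (41.7%, against 20.5%). Shares by direction were not taken among genes of like level. The counts by role below rest on few genes each and are to be read beside these shares of all genes. The values of the 2 groups did not overlap for 24 of the 36 genes (66.7%), compared with 49.5% of all genes tested. The median log2 fold change, GSK-LSD1 over DMSO, was -0.11 for the 36 genes, -0.15 for the ATF4 arm and -0.11 for the ER arm, beside -0.0079 for all genes tested. Only 2 of the 36, Vldlr and Ern1, differed by at least 1.5-fold.

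**Figure D1:**
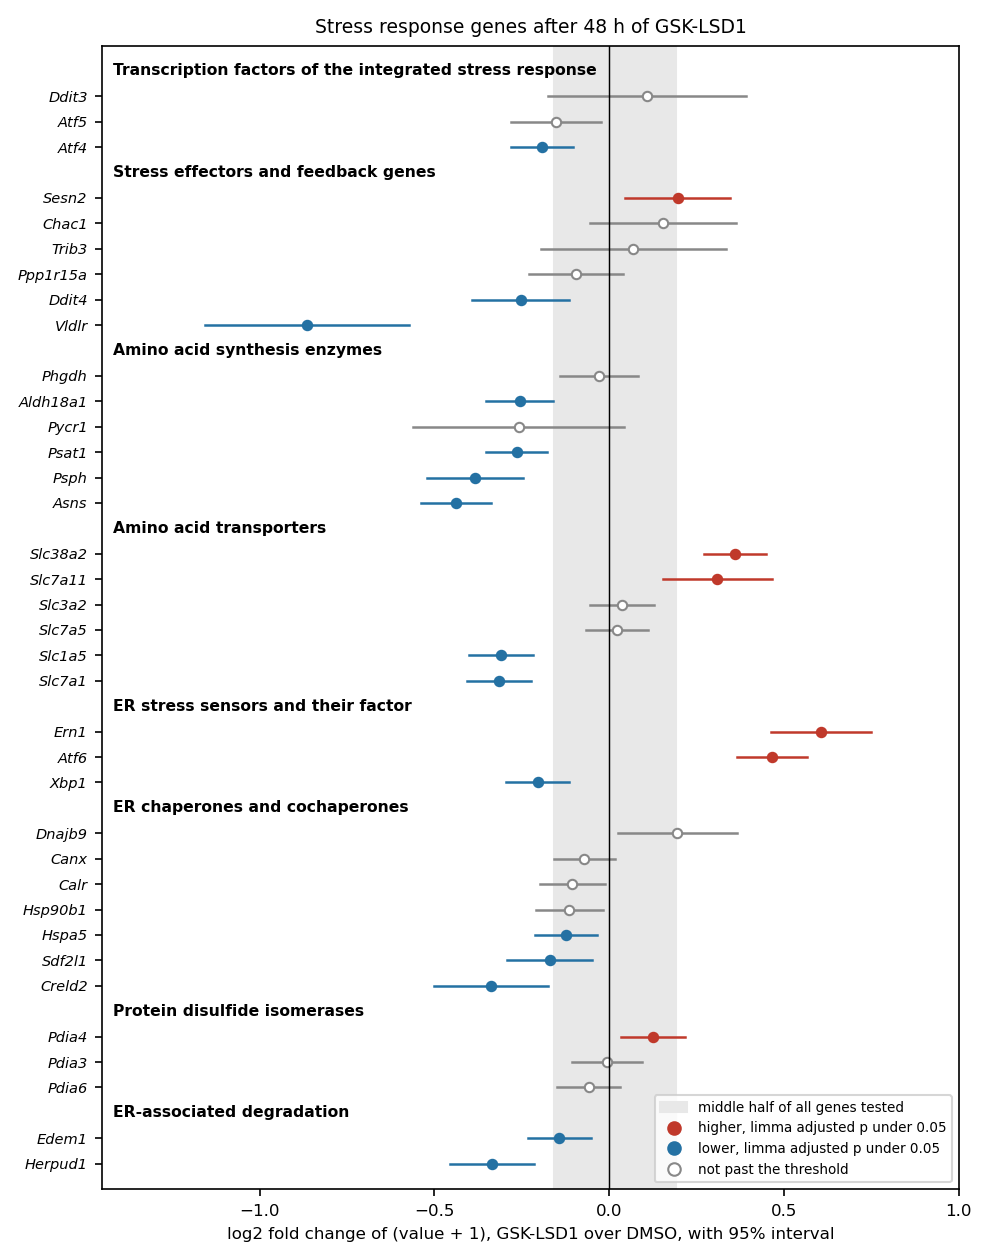
Log2 fold change (GSK-LSD1 over DMSO, x axis) of each of the 36 genes, grouped by role, with the 95% interval from limma; filled points passed an adjusted p of 0.05, and the grey band is the 25th to 75th percentile of all genes tested. Vldlr lies farthest to the left at -0.86 and Ern1 farthest to the right at 0.61, and 4 of the 7 chaperone genes lie inside the grey band.

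By library, the median of the ATF4 arm separated the groups and that of the ER arm did not. As the median deviation from each gene's own mean over the 6 libraries (log2 scale), the ATF4 arm stood at -0.081, -0.065 and -0.091 in the GSK-LSD1 libraries, against 0.051, 0.041 and 0.10 in the DMSO libraries. The ER arm stood at -0.032, -0.043 and -0.058 in the GSK-LSD1 libraries, against -0.035, -0.0021 and 0.11 in the DMSO libraries. DMSO replicate 1 thus lay within the GSK-LSD1 range for the ER arm and DMSO replicate 3 lay above the other 5 libraries. Since members rose and fell in both arms, these medians do not stand for single genes.

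**Figure D2:**
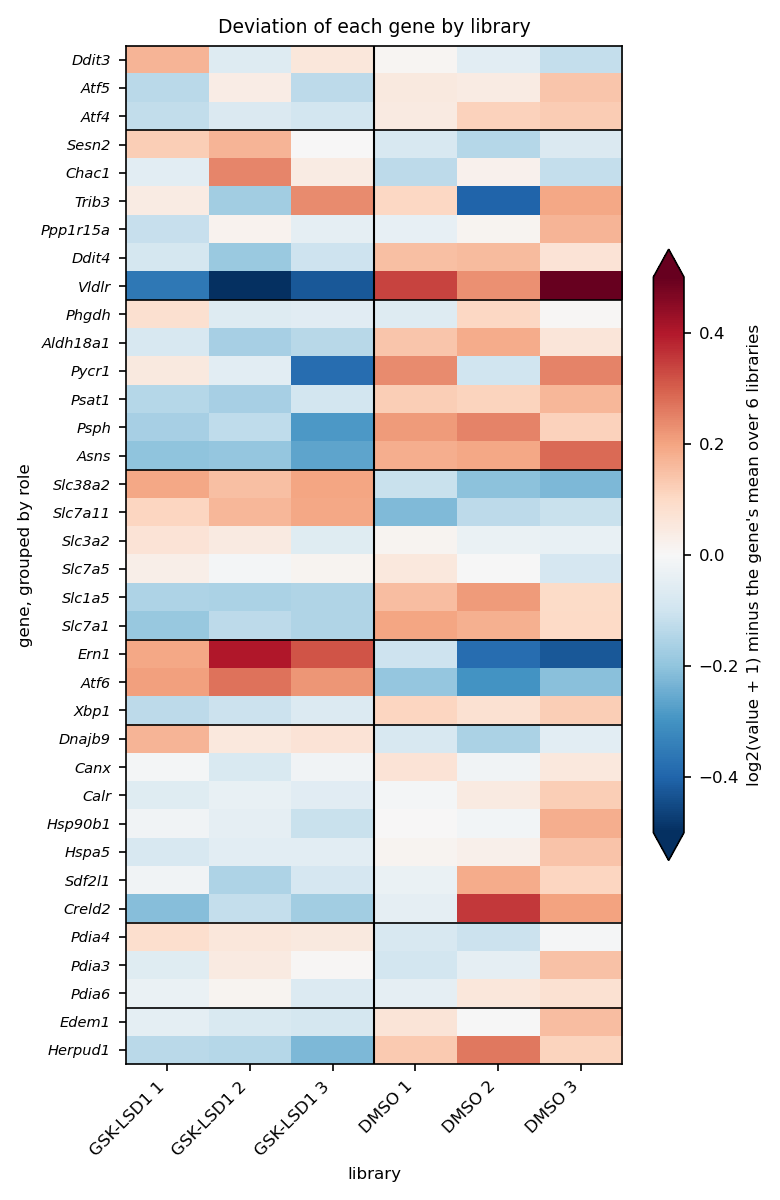
Heatmap of log2(value + 1) minus the mean of the gene over the 6 libraries, with 1 row per gene grouped by role and 1 column per library (GSK-LSD1 to the left of the line). Asns, Psph and Vldlr are low and Atf6 and Ern1 high in all 3 GSK-LSD1 libraries, while Hspa5, Hsp90b1 and Calr are highest in DMSO replicate 3.

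Promoters were searched for the DNA elements through which ATF4 and the ER stress factors are known to act, and 6 with a match are shown, from genes of amino acid synthesis and transport, chaperones and degradation. RefSeq promoter sequences of build GRCm38.p6, from 250 bases before to 50 bases after a gene start, matched 33 of the 36 genes, 4 of them with 2 starts (Atf6, Slc7a5 and Slc1a5 had no entry). The following 4 motifs were searched on both strands: the C/EBP-ATF response element (CARE, TGATGNAA), the ER stress response element (ERSE, CCAAT followed by 9 bases and CCACG), ERSE-II (ATTGG, 1 base, CCACG) and the unfolded protein response element (UPRE, TGACGTGG). No matches in the 36 genes overlapped each other. A CARE match was found in 7 of the 33 genes, 6 of the ATF4 arm (Asns, Chac1, Pycr1, Slc7a11, Trib3 and Vldlr) and Herpud1 of the ER arm, and in 4.51% of all 27025 genes in the promoter table. An ERSE match was found in 6 of the 33, all of the ER arm (Hspa5, Hsp90b1, Calr, Canx, Creld2 and Pdia6), and in 0.137% of all genes. ERSE-II matched Herpud1 alone among the 33 and 0.044% of all genes, and UPRE matched none of the 33 and 0.714% of all genes. A match describes the letters in these windows and does not show that a factor binds there. Only exact letters were searched, so elements that differ by a base or lie outside the windows would be missed. In the sequences below, given 5′ to 3′ on the strand of the gene, the matches are in capitals.
Asns, chr6:7693160-7693459, minus strand: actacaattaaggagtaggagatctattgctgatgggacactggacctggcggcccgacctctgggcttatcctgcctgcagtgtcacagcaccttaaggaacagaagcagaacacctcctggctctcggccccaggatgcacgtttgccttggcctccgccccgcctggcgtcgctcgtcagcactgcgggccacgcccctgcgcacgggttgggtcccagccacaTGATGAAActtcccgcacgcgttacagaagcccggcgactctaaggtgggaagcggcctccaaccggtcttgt
Slc7a11, chr3:50443564-50443863, minus strand: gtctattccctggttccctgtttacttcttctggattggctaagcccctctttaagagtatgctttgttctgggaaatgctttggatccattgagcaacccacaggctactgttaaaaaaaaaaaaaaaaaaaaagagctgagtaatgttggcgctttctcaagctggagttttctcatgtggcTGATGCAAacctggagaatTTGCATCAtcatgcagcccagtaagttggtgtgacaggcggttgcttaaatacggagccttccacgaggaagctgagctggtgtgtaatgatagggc
Hspa5, chr2:34771840-34772139, plus strand: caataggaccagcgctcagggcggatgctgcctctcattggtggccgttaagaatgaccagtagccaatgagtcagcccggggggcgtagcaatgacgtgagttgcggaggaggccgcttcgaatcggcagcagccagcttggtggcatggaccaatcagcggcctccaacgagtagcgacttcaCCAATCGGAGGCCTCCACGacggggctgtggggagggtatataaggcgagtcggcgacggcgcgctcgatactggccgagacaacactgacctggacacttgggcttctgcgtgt
Hsp90b1, chr10:86705395-86705694, minus strand: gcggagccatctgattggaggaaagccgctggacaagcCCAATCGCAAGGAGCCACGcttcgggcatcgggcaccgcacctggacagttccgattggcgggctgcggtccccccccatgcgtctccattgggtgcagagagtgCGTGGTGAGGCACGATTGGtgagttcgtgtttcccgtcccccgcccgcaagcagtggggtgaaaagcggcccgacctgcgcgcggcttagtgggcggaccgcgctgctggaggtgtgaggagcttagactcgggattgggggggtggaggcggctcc
Creld2, chr15:88819396-88819695, plus strand: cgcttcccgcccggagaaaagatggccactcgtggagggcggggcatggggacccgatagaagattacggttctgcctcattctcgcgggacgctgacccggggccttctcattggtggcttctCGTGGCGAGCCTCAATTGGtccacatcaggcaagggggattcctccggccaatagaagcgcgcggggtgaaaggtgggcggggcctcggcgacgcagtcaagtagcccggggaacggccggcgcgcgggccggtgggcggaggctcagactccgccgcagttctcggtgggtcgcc
Herpud1, chr8:94386179-94386478, plus strand: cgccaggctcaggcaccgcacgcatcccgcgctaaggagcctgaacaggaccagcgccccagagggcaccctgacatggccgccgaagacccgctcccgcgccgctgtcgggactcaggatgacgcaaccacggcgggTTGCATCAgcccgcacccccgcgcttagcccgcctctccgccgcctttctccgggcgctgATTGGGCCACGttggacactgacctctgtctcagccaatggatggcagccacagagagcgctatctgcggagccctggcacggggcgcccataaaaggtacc
Asns has its CARE 23 bases before the start. Slc7a11 has 2, starting 66 and 47 bases before it, on opposite strands. Hspa5 has its ERSE match 65 bases before the start, and Hsp90b1 has 2 on opposite strands at 212 and 107 bases. Creld2 has 1 at 126 bases, on the minus strand relative to the gene. Herpud1 is the 1 gene with 2 kinds of element, a CARE at 112 bases before the start and an ERSE-II at 52 bases. Genes with the same element did not all have the same call: of the 7 with CARE, Asns, Vldlr and Herpud1 fell, Slc7a11 rose, and Chac1, Pycr1 and Trib3 were not past the threshold. Of the 6 with ERSE, Hspa5 and Creld2 fell and the other 4 were not past it.

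**Figure D3:**
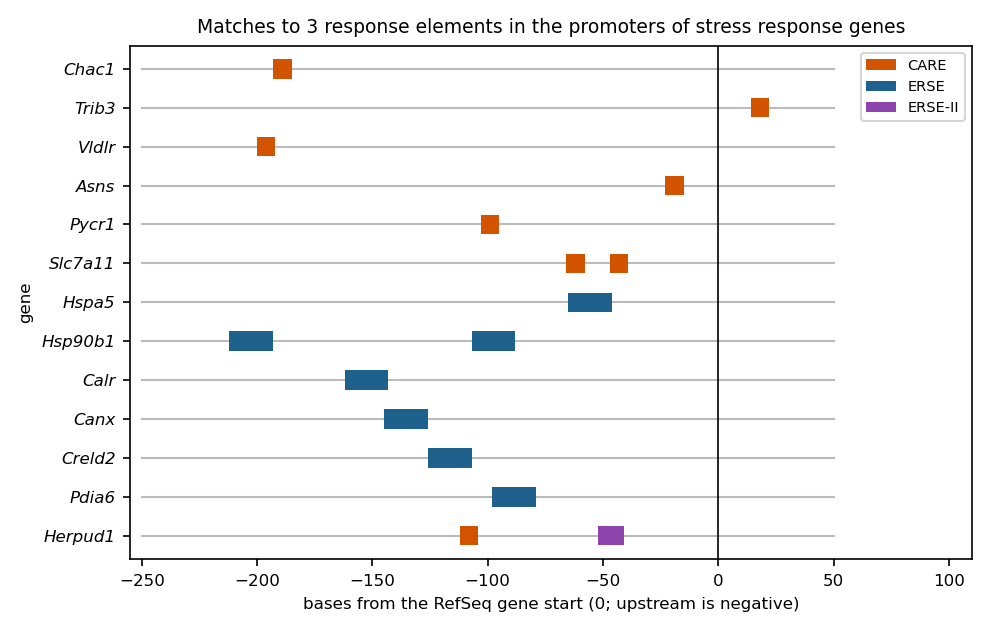
Positions of motif matches in the promoters of the 13 stress response genes with at least 1 match, in bases from the RefSeq gene start (x axis, upstream negative), with 1 line per gene and the element given by color. CARE matches lie in 6 genes of the ATF4 arm and in Herpud1, and ERSE matches in 6 genes of the ER arm; for Vldlr the downstream of its 2 starts is shown.

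Of the transcription factors of the integrated stress response, Atf4 fell and Atf5 and Ddit3 were not past the threshold. Atf4 (chromosome 15, 80255184 to 80257541, GRCm38) read 4219.6, 4365 and 4304 in the GSK-LSD1 libraries, against 4741, 4973 and 5010.1 in the DMSO libraries. All 3 GSK-LSD1 values lay below all DMSO values, with a log2 fold change of -0.19 (SE 0.0431, limma adjusted p = 0.000452), that is 1.14-fold lower. Atf5, a factor close to ATF4 and likewise controlled by translation, averaged 616 ± 43.0 with GSK-LSD1 and 684 ± 26.8 with DMSO (mean ± SD, n = 3 libraries a group, as for all such means below), with a log2 fold change of -0.15 (SE 0.0631, limma adjusted p = 0.0517) and a 95% interval of -0.28 to -0.024. Its groups did not overlap, but GSK-LSD1 replicate 2 was within 2 scaled reads of the lowest DMSO value, and without that library its adjusted p was 0.0192 (log2 fold change -0.21). Ddit3 encodes CHOP, the factor tied to cell death after long ER stress, and read 92.8, 78.7 and 85.7 in the GSK-LSD1 libraries, against 83.0, 79.3 and 75.7 in the DMSO libraries. The groups overlapped, with a log2 fold change of 0.11 (SE 0.140, limma adjusted p = 0.564) and an interval of -0.17 to 0.39 that leaves room for changes of either sign, and the sign turned with quantile scaling (-0.077). Exons of Atf5 overlap Il4i1 and Nup62, and those of Ddit3 overlap Mars, on the other strand. The counting of strand is not given in the sources used here, so these values are uncertain.

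Among the stress effectors and feedback genes, Vldlr and Ddit4 fell, Sesn2 rose, and Chac1, Trib3 and Ppp1r15a were not past the threshold. Vldlr, which encodes a lipoprotein receptor that ATF4 induces, read 68.3, 61.1 and 65.2 in the GSK-LSD1 libraries, against 111, 103 and 146 in the DMSO libraries, a 1.82-fold lower level that was the largest change of the 36 (log2 fold change -0.86, SE 0.144, limma adjusted p = 7.18e-06). Every GSK-LSD1 library was well below the lowest DMSO library. Ddit4, also called REDD1, restrains the growth kinase mTORC1 and read 432, 403 and 426 in the GSK-LSD1 libraries, against 509.8, 512 and 481 in the DMSO libraries, again without overlap, with a log2 fold change of -0.25 (SE 0.0680, limma adjusted p = 0.00282). Sesn2, a leucine sensor and another brake on mTORC1, moved the other way and read 418, 432 and 384 in the GSK-LSD1 libraries, against 363, 348 and 365 in the DMSO libraries (log2 fold change 0.20, SE 0.0734, limma adjusted p = 0.0309). That rise was lost without GSK-LSD1 replicate 1 (adjusted p = 0.0919), GSK-LSD1 replicate 2 (0.141) or DMSO replicate 2 (0.096) in limma, and without a mean-variance trend (0.0551); over all alternatives its adjusted p was 0.0184 to 0.141. Chac1, a glutathione-degrading enzyme, averaged 192 ± 20.5 with GSK-LSD1 and 172 ± 10.2 with DMSO (log2 fold change 0.15, interval -0.054 to 0.36). Trib3, a pseudokinase that dampens the pathway, averaged 147 ± 21.1 with GSK-LSD1 and 142 ± 29.4 with DMSO (log2 fold change 0.069, interval -0.20 to 0.33). Its sign turned with quantile scaling (-0.032), without GSK-LSD1 replicate 3 (-0.032) and without DMSO replicate 2 (-0.11). Ppp1r15a encodes GADD34, the subunit that directs a phosphatase to eIF2, and averaged 562 ± 26.2 with GSK-LSD1 and 601 ± 46.6 with DMSO (log2 fold change -0.094, interval -0.23 to 0.04).

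Of the 6 amino acid synthesis genes, 4 fell, 2 did not pass the test and none rose. The 6 log2 fold changes lay between -0.44 and -0.029 with a median of -0.26. Asns (chromosome 6, 7675169 to 7693254), which makes asparagine and has the CARE shown above, read 1431, 1441 and 1373 in the GSK-LSD1 libraries, against 1870.1, 1884 and 2003 in the DMSO libraries. It was 1.35-fold lower, with a log2 fold change of -0.44 (SE 0.0489, limma adjusted p = 3.3e-09) and no overlap. Psat1 and Psph carry out the last steps of serine synthesis. Psat1 read 4839, 4757 and 5008 in the GSK-LSD1 libraries, against 5808, 5757 and 5979.7 in the DMSO libraries, a log2 fold change of -0.26 (SE 0.0427, limma adjusted p = 4.49e-06). Psph read 459, 472 and 422 in the GSK-LSD1 libraries, against 598, 611 and 558 in the DMSO libraries, a log2 fold change of -0.38 (SE 0.0672, limma adjusted p = 1.65e-05), though its exons overlap Cct6a on the other strand. Both were lower in every GSK-LSD1 library than in any DMSO library. Phgdh, the first enzyme of the same route, did not follow: it averaged 1184 ± 67.9 with GSK-LSD1 and 1208 ± 69.8 with DMSO, with overlapping groups, a log2 fold change of -0.029 (SE 0.0552, limma adjusted p = 0.703) and an interval of -0.14 to 0.083. Its sign turned without DMSO replicate 2 (0.014), and reads may be shared with an annotated pseudogene. Aldh18a1 and Pycr1 make proline from glutamate. Aldh18a1 read 1976, 1863 and 1901 in the GSK-LSD1 libraries, against 2299, 2379 and 2181 in the DMSO libraries, without overlap (log2 fold change -0.26, SE 0.0478, limma adjusted p = 4.17e-05). Pycr1, with few reads, read 85.7, 79.7 and 63.3 in the GSK-LSD1 libraries, against 97.7, 77.3 and 98.5 in the DMSO libraries, with overlapping groups, and its log2 fold change of -0.26 was close to that of Psat1 but had an interval of -0.56 to 0.044 (adjusted p = 0.167); with quantile scaling it was past the threshold (-0.44, adjusted p = 0.0171), and without GSK-LSD1 replicate 3 it was -0.13 (adjusted p = 0.556).

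**Figure D4:**
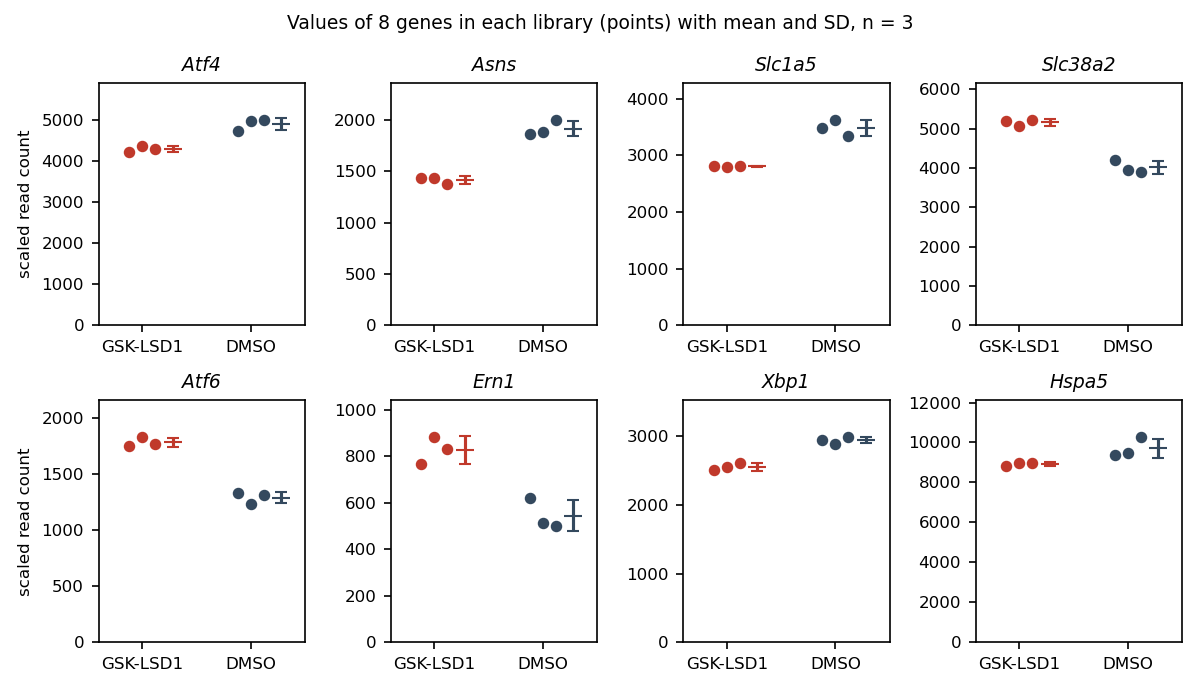
Scaled read counts (y axis from 0) of 8 genes in the 3 GSK-LSD1 and 3 DMSO libraries, 1 point per library, with the mean and SD (n = 3) beside them. Atf4, Asns, Slc1a5, Xbp1 and Hspa5 are lower and Slc38a2, Atf6 and Ern1 higher in all 3 GSK-LSD1 libraries than in any DMSO library; for Hspa5 the gap is small, with 8974 as the highest GSK-LSD1 value and 9395 as the lowest DMSO value.

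The 6 amino acid transporter genes divided evenly, with 2 up, 2 down and 2 not past the threshold. Slc38a2 encodes SNAT2, a sodium-coupled carrier of small neutral amino acids, and read 5203, 5062 and 5223 in the GSK-LSD1 libraries, against 4213, 3952 and 3900.2 in the DMSO libraries. It was 1.28-fold higher (log2 fold change 0.36, SE 0.0439, limma adjusted p = 2.16e-08). Slc7a11, the cystine-glutamate exchanger with 2 CARE matches, read 357, 372 and 379 in the GSK-LSD1 libraries, against 284, 302 and 307 in the DMSO libraries, which is 1.24-fold higher (log2 fold change 0.31, SE 0.0765, limma adjusted p = 0.00127). Neither gene had overlapping groups. Slc7a1, the carrier of arginine and lysine, read 2959, 3078 and 3036 in the GSK-LSD1 libraries, against 3867, 3813 and 3609.5 in the DMSO libraries, a log2 fold change of -0.31 (SE 0.0445, limma adjusted p = 4.36e-07). The glutamine carrier Slc1a5 read 2808, 2798 and 2816 in the GSK-LSD1 libraries, against 3481, 3623 and 3343 in the DMSO libraries, a log2 fold change of -0.31 (SE 0.0447, limma adjusted p = 6.33e-07), and both of these were about 1.24-fold lower with no overlap. Slc7a5 and Slc3a2, the 2 chains of the leucine carrier LAT1, stayed together. Slc7a5 averaged 6488 ± 84.2 with GSK-LSD1 and 6394 ± 299 with DMSO (log2 fold change 0.022, interval -0.067 to 0.11), and its sign turned without DMSO replicate 3 (-0.014). Slc3a2 averaged 3881 ± 182 with GSK-LSD1 and 3783 ± 75.1 with DMSO (log2 fold change 0.036, interval -0.055 to 0.13). These narrow intervals leave out changes as large as those of the other 4 transporters.

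The ER sensor genes Atf6 and Ern1 rose while Xbp1, the mRNA on which IRE1 acts, fell. Atf6 (chromosome 1, 170704674 to 170867771) read 1754, 1832 and 1772 in the GSK-LSD1 libraries, against 1330.1, 1235 and 1315 in the DMSO libraries, 1.38-fold higher (log2 fold change 0.47, SE 0.0496, limma adjusted p = 1.16e-09). Ern1 (chromosome 11, 106394650 to 106487852), the gene of IRE1, read 765, 882 and 832 in the GSK-LSD1 libraries, against 622, 513 and 499 in the DMSO libraries, the largest rise of the 36 at 1.52-fold (log2 fold change 0.61, SE 0.0706, limma adjusted p = 8.72e-09). The lowest GSK-LSD1 value of each was above the highest DMSO value. Xbp1 (chromosome 11, 5520659 to 5525893) read 2505, 2544 and 2612 in the GSK-LSD1 libraries, against 2949, 2892 and 2984 in the DMSO libraries, 1.15-fold lower without overlap (log2 fold change -0.20, SE 0.0445, limma adjusted p = 0.000318). These calls were the same in all 15 alternatives. The table does not separate the spliced from the unspliced Xbp1 mRNA. The third sensor gene, Eif2ak3 (PERK), taken from the list of eIF2 kinases, averaged 314 ± 47.1 with GSK-LSD1 and 303 ± 20.2 with DMSO, with a log2 fold change of 0.044 and an interval of -0.14 to 0.23 (adjusted p = 0.724).

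Of the 7 ER chaperone genes 3 fell, 4 did not pass the test and none went up, with log2 fold changes from -0.34 to 0.19. Calls in 3 of 7 genes are near the 41.1% of all genes tested that were called in either direction (20.5% were called lower). Hspa5 (chromosome 2, 34771970 to 34777547), the gene of the main ER chaperone BiP and the usual marker of the unfolded protein response, read 8805, 8952 and 8974 in the GSK-LSD1 libraries, against 9395, 9470.1 and 10265 in the DMSO libraries. Its groups did not overlap, but the difference was 1.09-fold (log2 fold change -0.12, SE 0.0437, limma adjusted p = 0.0228). The call was lost without GSK-LSD1 replicate 1 (adjusted p = 0.0909), 2 (0.0694) or 3 (0.0686) and without DMSO replicate 3 (0.0839). It was also lost with quantile scaling (0.213) and without a mean-variance trend (0.136), and its adjusted p over all alternatives was 0.00965 to 0.213. Creld2, a disulfide isomerase of the ER, read 354, 378 and 364 in the GSK-LSD1 libraries, against 398, 524 and 472 in the DMSO libraries, 1.26-fold lower with no overlap (log2 fold change -0.34, SE 0.0801, limma adjusted p = 0.000852); its call was lost only without the trend (0.0535). Sdf2l1, a partner of BiP, read 889, 806 and 848 in the GSK-LSD1 libraries, against 877, 1021 and 968 in the DMSO libraries, with 1 GSK-LSD1 value inside the DMSO range (log2 fold change -0.17, SE 0.0596, limma adjusted p = 0.0206). It missed the threshold without GSK-LSD1 replicate 2 (adjusted p = 0.123), GSK-LSD1 replicate 3 (0.0572) or DMSO replicate 2 (0.147), and without the trend (0.131), and its adjusted p ran from 0.00267 to 0.147 in all.

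The remaining chaperone genes were not past the threshold. Hsp90b1, which encodes GRP94, averaged 11839 ± 403 with GSK-LSD1 and 12829 ± 984 with DMSO (log2 fold change -0.11, interval -0.21 to -0.017, limma adjusted p = 0.0543). Calr, the gene of calreticulin, a chaperone of glycoproteins, averaged 28485 ± 248 with GSK-LSD1 and 30665 ± 1450.0 with DMSO (-0.11, interval -0.20 to -0.012, adjusted p = 0.0632), and some reads may belong to an annotated pseudogene. Both sat just above the threshold. Without DMSO replicate 1 they passed it, with an adjusted p of 0.0206 for Hsp90b1 and 0.0168 for Calr, as did Hsp90b1 without DMSO replicate 2 (0.0235) and Calr with quantile scaling (0.0017). Other settings made the differences smaller. Without DMSO replicate 3 the log2 fold change was -0.051 for Hsp90b1 (adjusted p = 0.312) and -0.069 for Calr (0.141), and with quantile scaling that of Hsp90b1 was -0.03 (0.556). Canx, the membrane-bound relative of calreticulin, averaged 7869.9 ± 194 with GSK-LSD1 and 8269 ± 262 with DMSO (-0.071, interval -0.16 to 0.016). Dnajb9, a cochaperone known to restrain IRE1, was the 1 chaperone gene with a positive log2 fold change: it averaged 284 ± 12.8 with GSK-LSD1 and 248 ± 9.32 with DMSO, with no overlap between the groups (0.19, interval 0.024 to 0.36, adjusted p = 0.0615). It passed when libraries were scaled to equal totals (0.0406) and without the trend (0.0477). Per kilobase of annotated exon, the mean level in GSK-LSD1 libraries was highest for Calr at 9891 scaled reads, against 10650.0 in DMSO libraries, and lowest among chaperones for Dnajb9 at 112, against 97.4.

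Of the 3 protein disulfide isomerase genes, which form and shuffle disulfide bonds, Pdia4 rose and Pdia3 and Pdia6 were not past the threshold. Pdia4 read 2886, 2829.9 and 2813 in the GSK-LSD1 libraries, against 2577, 2527 and 2714 in the DMSO libraries, with no overlap but a difference of only 1.09-fold (log2 fold change 0.13, SE 0.0453, limma adjusted p = 0.0239). The rise was lost without GSK-LSD1 replicate 1 (adjusted p = 0.0919), 2 (0.0631) or 3 (0.0596), without DMSO replicate 1 (0.0511) or 2 (0.0923) and without the trend (0.106), with an adjusted p of 0.00368 to 0.106 over all alternatives. Pdia3 averaged 10041 ± 379 with GSK-LSD1 and 10114 ± 897 with DMSO (log2 fold change -0.0075, interval -0.11 to 0.093), and its sign turned under both other scalings, 0.056 with quantile scaling and 0.012 with equal totals. Pdia6 averaged 4904 ± 137 with GSK-LSD1 and 5110.3 ± 227 with DMSO (-0.059, interval -0.15 to 0.031). Both genes for degradation of ER proteins fell. Herpud1, which helps assemble the degradation complex and carries CARE and ERSE-II, read 715, 710.1 and 672 in the GSK-LSD1 libraries, against 859, 941 and 847 in the DMSO libraries, 1.26-fold lower (log2 fold change -0.34, SE 0.0589, limma adjusted p = 1.77e-05). Edem1, which marks misfolded glycoproteins for removal, read 7857, 7703 and 7638 in the GSK-LSD1 libraries, against 8486, 8114 and 9044 in the DMSO libraries (log2 fold change -0.14, SE 0.0443, limma adjusted p = 0.00894). Neither pair of groups overlapped, and the call of Edem1 was lost without GSK-LSD1 replicate 3 (adjusted p = 0.0567) and without the trend (0.106), with a range of 0.00268 to 0.106. Exons of Hsp90b1, Dnajb9, Ppp1r15a, Pdia3 and Pdia6 also overlap a gene on the other strand. On the same strand, exons of Hsp90b1 overlap Gm15344 and Gm25745, and those of Pdia4 overlap Mir704. Reads there cannot be told apart by strand.

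Genes outside the 36 were taken from lists of the same pathways. Calls went in both directions in most of the lists, but only downward for eIF2 control and the tRNA synthetases. Listed genes outside the table (1 of 17 for eIF2 control, 2 of 30 for ATF4 and CHOP targets and 2 of 39 for ER folding) were not analysed here. Of 16 tested genes that control eIF2, 8 fell, 8 did not pass the test and none rose (50% called, against 41.1% of all genes tested; median log2 fold change -0.11). The 8 were the 3 eIF2 subunit genes and the 5 eIF2B subunit genes, led by Eif2b1, which read 593, 572 and 567 with GSK-LSD1 and 722, 812 and 752 with DMSO (log2 fold change -0.40, SE 0.0614, limma adjusted p = 2.18e-06), with Eif2b4 at -0.27 and Eif2b2 at -0.23. The 4 kinase genes Eif2ak1, Eif2ak2, Eif2ak3 and Eif2ak4 had log2 fold changes between -0.034 and 0.076 and none was past the threshold. Of 20 cytosolic tRNA synthetase genes, many of them ATF4 targets, 15 fell and none rose (75% called), all 20 log2 fold changes were below 0 (19 with quantile scaling or equal totals, where Nars stood at 0.05 and 0.0017), and the median was -0.17. Farsb (-0.34), Vars (-0.32) and Hars (-0.29) had the largest falls. Without the mean-variance trend the calls were 2 of the eIF2 genes and 9 of the synthetase genes.

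Of 26 other tested ATF4 and CHOP targets, 7 were called higher, 10 lower and 9 neither (65.4% called, against 41.1% of all genes tested; median log2 fold change -0.11). Ero1l, an ER oxidase that also answers low oxygen, read 6258, 6030.3 and 6084 in the GSK-LSD1 libraries, against 10380.0, 10069.6 and 11145 in the DMSO libraries (log2 fold change -0.78, SE 0.0442, limma adjusted p = 6.6e-17), and Vegfa (-0.61) and the secreted glycoprotein gene Stc2 (-0.54) fell as well. All 3 were lower in every GSK-LSD1 library than in any DMSO library. The glycine carrier gene Slc6a9 read 524, 549 and 543 in the GSK-LSD1 libraries, against 353, 349.8 and 303 in the DMSO libraries (log2 fold change 0.69, SE 0.0728, limma adjusted p = 1.06e-09), with smaller rises for the carrier gene Slc38a7 (0.46) and the stress gene Gadd45a (0.41). As in the 36 genes, carriers were found on both sides, since Slc43a1 was among the 10 that fell (-0.41).

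Of 36 other tested genes of ER folding, entry and exit, 2 were called higher, 13 lower and 21 neither (41.7% called, about the 41.1% of all genes tested; median log2 fold change -0.078). The largest falls were those of the prolyl isomerase gene Fkbp11 (-0.51), the translocon gene Sec61g (-0.39) and P4hb, the gene of protein disulfide isomerase itself, which read 9615, 9258 and 9053 in the GSK-LSD1 libraries, against 11609.5, 12196 and 12410.3 in the DMSO libraries (log2 fold change -0.37, SE 0.0434, limma adjusted p = 7.57e-09). Dnajc10, an ER reductase, rose (0.43), as did Ssr3 (0.12). The calls came to 1 higher and 8 lower without the trend or without GSK-LSD1 replicate 3, and 1 was higher without GSK-LSD1 replicate 2 or DMSO replicate 1. Of 17 other tested degradation genes, 4 were called higher, 2 lower and 11 neither (35.3% called, below the 41.1% of all genes; median 0.01). Here the relatives of Edem1 went opposite to it: Edem3 read 1544, 1646 and 1651 in the GSK-LSD1 libraries, against 1302, 1199 and 1209 in the DMSO libraries (log2 fold change 0.38, SE 0.0513, limma adjusted p = 1.5e-07) and Edem2 read 1669, 1599 and 1571 in the GSK-LSD1 libraries, against 1332, 1267 and 1288 in the DMSO libraries (log2 fold change 0.32, SE 0.0496, limma adjusted p = 2.93e-06), both without overlap. Os9, a lectin of the same pathway, rose (0.24), while Ngly1 (-0.54) and Ube2g2 (-0.25) fell. Of 12 other ER signalling genes, Wfs1 (0.62) and Creb3 (0.36) rose, Bak1 (-0.19) and Tmbim6 (-0.13) fell, and 8 were neither (33.3% called, again below the share of all genes; median 0.019). Of the falls, 1 was called with quantile scaling, without the trend, and without GSK-LSD1 replicate 2 or DMSO replicate 2.

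**Figure D5:**
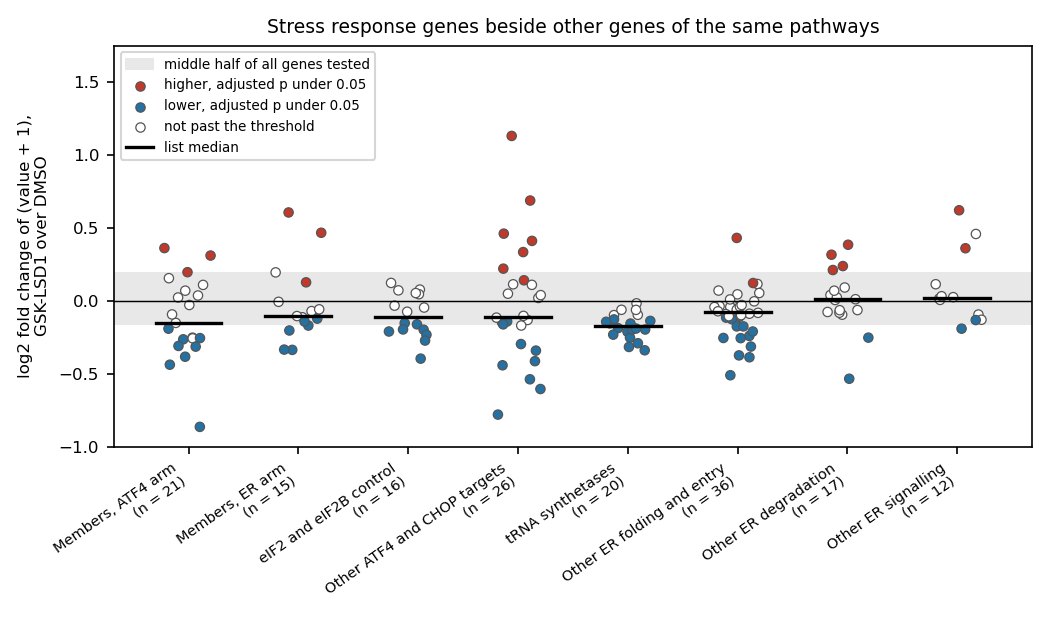
Log2 fold change (GSK-LSD1 over DMSO, y axis) of the 21 ATF4 arm and 15 ER arm genes beside 6 lists of other genes from the same pathways, 1 point per tested gene, colored by its call, with the list median as a bar and the 25th to 75th percentile of all genes tested in grey. The 20 tRNA synthetase genes all lie below 0 (19 with quantile scaling or equal totals, the other being Nars) with a median of -0.17, while the other ATF4 and CHOP targets range from -0.78 to 1.13.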

How the data were processed

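RNA-seq values of 6 samples were taken from 1 table of scaled read counts. Per the submitters' processing notes, STAR, DESeq2, mm10 and GRCm38 were used, with no version, role or order. For the counter, annotation, strand setting and filters, the entry is: not given in the sources used here. In the deposited table the values are a normalised signal: in each library, 100% of values were whole multiples of the smallest (0.973 to 1.04), within 0.01 reads, so they are read counts divided by 1 factor per library. All 6 columns matched a sample.

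Genes with a value of at least 10 in at least 3 libraries were tested (11588; 3447 were left out) with limma 3.58.1 in R 4.3.3 (mean-variance trend on, pseudocount 1, log2 scale). Tests were two-sided, and p-values were adjusted by the Benjamini-Hochberg method over these genes. Fold changes are on that scale, which slightly understates changes of low values, and intervals are 95% limits from the same fit. The fit was first tested on simulated data, where it missed part of the smallest changes put in. Those smallest changes were larger than the changes of most called genes of the 36, so the simulation does not cover calls of that size. The 36 genes, their roles and the other lists were chosen with earlier results of these data known. Every library's value is given for those of the 36 past the threshold and for Atf4, Ddit3, Atf6, Ern1, Xbp1 and Hspa5. From each other list, up to 3 called genes per direction with the largest change and a mean of at least 50 are named, some by their fold change alone. The marker genes, the eIF2 kinase genes, Slc43a1, Nars, Sesn3, Atf3, Gdf15 and Derl3 were named outside this rule, after their values were seen. Coordinates and exon lengths come from GENCODE M21 (GRCm38), promoters from RefSeq (GRCm38.p6). The alternatives were a pseudocount of 0.5 or 5, no filter or a mean of at least 50, quantile scaling, equal totals, no trend, a replicate block, each library left out, and edgeR 4.0.16 quasi-likelihood on recovered reads. Same-numbered samples did not deviate together (r = -0.024, -0.028 and -0.0077), so the numbers were not treated as pairs.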

Additional observations from a re-analysis of the deposited data

How the results depend on the processing

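Of the 21 called genes, 15 kept their call and sign in all 15 alternatives, 6 lost the call in at least 1 (Sesn2, Hspa5, Sdf2l1, Creld2, Pdia4 and Edem1) and none changed sign; of the 15 genes not past the threshold, 5 gained a call in at least 1 alternative. The number called was 16 without the mean-variance trend, 17 to 22 when a library was left out, 21 with edgeR on recovered reads and 21 with the replicate block, and the block changed no call of the 36 genes (4661 of all genes were called with it, against 4762 without). With edgeR, 4784 of all genes were called, and each of the 36 had the same call and direction as in limma. The median of the ATF4 arm was -0.20 to -0.12 when a library was left out, and that of the ER arm was -0.044 with quantile scaling and -0.14 to -0.062 when a library was left out. Sign changes were seen in 5 genes that were not past the threshold. With quantile scaling Ddit3 was -0.077, Trib3 -0.032 and Pdia3 0.056, and with equal totals Pdia3 was 0.012. With a library left out, Trib3 ranged from -0.11 to 0.18, Phgdh from -0.076 to 0.014, Slc7a5 from -0.014 to 0.053 and Pdia3 from -0.055 to 0.064. The cause was not tested. Genes with few reads, such as Ddit3 and Pycr1, have the widest intervals.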

Other observations

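Among the other listed genes of these pathways, Atf3, Gdf15 and Derl3 were at or near the counting limit in both groups. Atf3, a partner factor of CHOP, read 3.06, 7.25 and 5.84 in the GSK-LSD1 libraries, against 0.977, 1.98 and 0.996 in the DMSO libraries, and was too low to be tested. Gdf15, a stress cytokine, read 0, 2.07 and 0.973 in the GSK-LSD1 libraries, against 0, 0.991 and 0 in the DMSO libraries, and Derl3, an ER degradation gene of secretory cells, read 3.06, 7.25 and 2.92 in the GSK-LSD1 libraries, against 1.95, 5.95 and 1.99 in the DMSO libraries. Sesn3, a relative of Sesn2 with a mean below the limit set for named genes, read 23.5, 32.1 and 35.04 in the GSK-LSD1 libraries, against 8.79, 16.9 and 14.9 in the DMSO libraries, without overlap (log2 fold change 1.13, limma adjusted p = 0.00136).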
